A study of Mus musculus with 18 samples.

Results

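The genes described here encode the proteins of the cytosolic ribosome. They were chosen by symbol alone, as every row named Rpl or Rps with a number (and the stalk genes Rplp0, Rplp1 and Rplp2) but without the -ps pseudogenes and the Rps6k kinases, and the rule found 88 of 55450 genes. RNA was sequenced from 15 mammary tumors and 3 normal mammary glands of C57Bl/6 female mice, with 1 library per mouse. The B1/P/Rbf group (n = 5) carried the genotype Brca1 fl/fl, Trp53 fl/fl and TgK18GT121 Tg/+, the B1/P group (n = 5) carried both floxed genes without the transgene, the P/Rbf group (n = 5) carried Trp53 fl/fl and TgK18GT121 Tg/+ with Brca1 intact, and the glands (n = 3) were wild type. Tumors in all 3 models were started in adult females by adenoviral Cre delivered through the nipple into the ducts, so every tumor group shares the deletion of Trp53. TgK18GT121 is driven by the promoter of keratin 18, a keratin of simple epithelia, and its product T121, a fragment of a viral oncoprotein, blocks pRb and its relatives. Tumors and glands were homogenized whole, so that fewer cells of a type and less RNA per cell cannot be told apart in any value below. No age at collection was given in the labels.

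A ribosome joins a small 40S subunit, built on the 18S rRNA with the Rps proteins, to a large 60S subunit, built on the other rRNAs with most Rpl proteins. Rplp0, Rplp1 and Rplp2 form the stalk of the 60S subunit that recruits elongation factors. The mRNAs of these proteins mostly begin with a C followed by a stretch of pyrimidines, the 5′ TOP motif, through which mTORC1 and LARP1 control their translation and stability. Most ribosomal protein genes are expressed in every cell, while a few paralogs are restricted to tissues such as striated muscle or testis and can replace their parent protein in the ribosome.

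Each sample held between 27661173 and 37794889 expected counts in total. Values per sample are CPM (counts divided by the scaled library total) after TMM scaling, with factors from 0.952 to 1.11 in the tumors and from 0.788 to 0.858 in the glands. In the glands the 10 most abundant genes took 12.6 to 13.3% of all counts, against 3.55 to 5.87% in the tumors. Library numbers in the labels run from 1 to 18, and as an alternative they were split into 2 sets: numbers 1 to 8 are the 5 B1/P/Rbf tumors with B1/P tumors 1 to 3, and numbers 9 to 18 are B1/P tumors 4 and 5, the 5 P/Rbf tumors and the 3 glands. No label marks this break, which was taken from an earlier analysis of these data, and all libraries were pooled for sequencing, so that the sets are not a known batch. B1/P/Rbf tumors share no set with P/Rbf tumors or glands, so that a term for the set rests there on the B1/P tumors alone. Trp53 had 6.75 to 24.3 CPM in the tumors and 54.4 to 71.8 CPM in the glands. Brca1 had 8.13 to 45 CPM in tumors with the floxed gene, 44.9 to 116 CPM in P/Rbf tumors and 4.61 to 5.99 CPM in glands, and whole-gene counts do not separate deleted exons from the rest. Epithelial markers summed to 1667 to 12538 CPM in the tumors and 2218 to 2656 CPM in the glands. The glands held 14417 to 19238 CPM of 8 adipocyte markers and 30616 to 62087 CPM of 9 skeletal muscle markers, against at most 261 and 736 CPM in any tumor.

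Start sites of named members are shown because the 5′ TOP stretch is the sequence feature that the family shares. Each window covers 10 bases before and 20 bases after the RefSeq start in build GRCm38.p6, 5′ to 3′ on the gene's strand, and capitals mark a run of 6 or more C or T that begins with C within 10 bases of the start.
Rps12 (40S protein; chr10:23787190-23787219, minus strand): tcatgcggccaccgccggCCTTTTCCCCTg
Rpl37a (60S protein; chr1:72711250-72711279, plus strand): ctcgccggtctaaaaccgcgcatgcgcatt
Rpl6 (60S protein; chr5:121204491-121204520, plus strand): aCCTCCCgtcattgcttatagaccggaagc
Rplp0 (stalk base; chr5:115559457-115559486, plus strand): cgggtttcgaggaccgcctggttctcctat
Rplp2 (stalk; chr7:141447641-141447670, plus strand): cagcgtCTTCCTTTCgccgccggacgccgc
Rps27 (40S protein; chr3:90213629-90213658, minus strand): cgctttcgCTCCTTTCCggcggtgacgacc
Rps27l (its paralog; chr9:66946076-66946105, plus strand): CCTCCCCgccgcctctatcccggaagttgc
Rpl22 (60S protein; chr4:152325716-152325745, plus strand): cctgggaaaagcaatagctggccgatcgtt
Rpl22l1 (its paralog; chr3:28805498-28805527, plus strand): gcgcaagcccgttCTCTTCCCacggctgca
Rpl39 (60S protein; chrX:37085203-37085232, minus strand): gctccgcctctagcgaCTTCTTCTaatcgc
Rpl39l (its paralog; chr16:10170218-10170247, plus strand): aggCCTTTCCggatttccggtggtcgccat
Rpl3l (muscle paralog of Rpl3; chr17:24727816-24727845, plus strand): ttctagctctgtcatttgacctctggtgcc
Of the 63 members with an entry, 32 (50.8%) held such a run on the gene's strand, beside 18.4% of the promoters of 26962 other genes. In GENCODE M21 (GRCm38) the protein-coding genes that the results turn on include Rps12 (ENSMUSG00000061983.7, chromosome 10, 23785183 to 23787275), Rpl37a (ENSMUSG00000046330.10, chromosome 1, 72711290 to 72713813), Rps27l (ENSMUSG00000036781.13, chromosome 9, 66946086 to 66949516) and Rpl3l (ENSMUSG00000002500.15, chromosome 17, 24727820 to 24736143). A gene without the run, such as Rpl37a, Rplp0 or Rpl22 here, lacks only these letters in this window.

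The summed mRNA of the 88 genes was lower in both groups with T121 than in B1/P tumors. After TMM scaling the members took 3.25, 3.48, 3.04, 3.37 and 2.47% of the transcripts counted in the 5 B1/P/Rbf tumors. The 5 B1/P tumors had 4.27, 4.07, 5.01, 5.13 and 5.21%, so that every one lay above every B1/P/Rbf tumor. The P/Rbf tumors were spread widely, at 4.27, 2.21, 4.16, 2.16 and 2.95%, and overlapped both other tumor groups. Within the library numbers 9 to 18, P/Rbf tumors reached at most 4.27% and the B1/P tumors 4 and 5 at least 5.13%. Glands had 4.30, 4.46 and 4.82%, above every B1/P/Rbf tumor. That gap to the glands rests on the scaling, because as a share of all counts the glands had 3.57 to 3.83% and the B1/P/Rbf tumors 2.76 to 3.81%. The order of the B1/P/Rbf and B1/P tumors did not, since the B1/P tumors had 4.21 to 5.46% of all counts. The share of mitochondrially encoded RNA also differed between these groups, with 0.955 to 1.72% of counts in B1/P/Rbf and 1.91 to 3.18% in B1/P tumors. With these counts left out, the members took 2.79 to 3.85% of the rest in B1/P/Rbf and 4.33 to 5.57% in B1/P tumors. The part of mitochondrial RNA in the result was not tested.

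**Figure D1:**
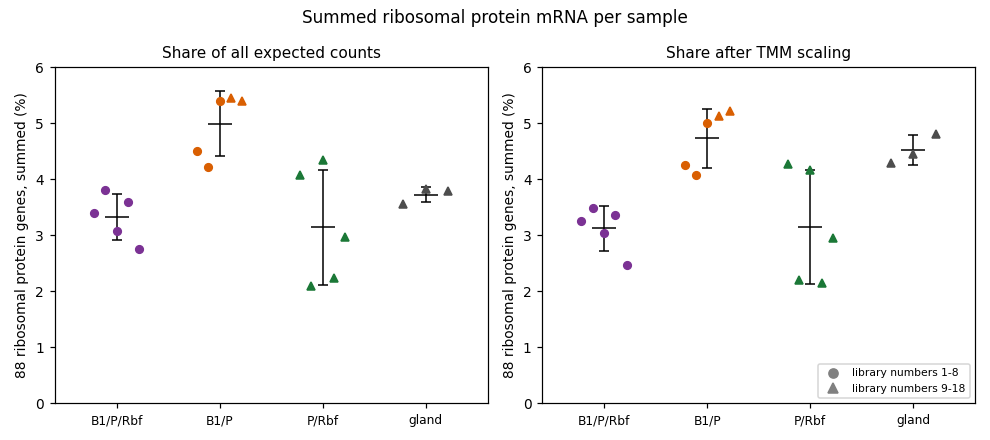
Summed share of the 88 ribosomal protein genes (y axis, %) in each sample by group, as a share of all expected counts (left) and after TMM scaling (right); circles are library numbers 1 to 8, triangles 9 to 18, and bars are mean ± SD. B1/P tumors lie above all B1/P/Rbf tumors in both panels, and the glands lie above the B1/P/Rbf tumors only after TMM scaling.

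Of the 88 members, 85 had enough counts to be tested together with all 19186 genes in edgeR's quasi-likelihood test, and a gene was called where its p, adjusted after Benjamini and Hochberg over all of them, was at most 0.05. The 3 others were Rpl10l, a testis paralog without a count in any sample, and the retrogene copies Rpl32l and Rps3a3, at no more than 14 counts in any library. Numbers of members passing at an unadjusted p, by other methods or in alternative fits are given without the matching share of all genes. Across the 18 samples Rplp0, Rpl4 and Rpl7 had the highest mean CPM of the members, at 1671, 1297 and 978 CPM, values that are not corrected for transcript length and so do not rank the genes against each other.

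The first comparison asked what deletion of Brca1 adds in tumors with T121 and without Trp53. By edgeR no member was called in either direction for B1/P/Rbf against P/Rbf tumors, where 0.219% of all genes were called higher and 0.0625% lower, and DESeq2 and limma-voom also called none. Loss of the Brca1 transcript was described as only partial in B1/P/Rbf tumor 3, and no member was called without that tumor either. No member separated the groups without overlap, while 1.71% of all genes did so upward and 1.31% downward. At an unadjusted p under 0.05 there was 1 member higher and 1 lower. These were Rps4l, at 1.65 (SE 0.62, adjusted p = 0.195), which fell to 0.38 without B1/P/Rbf tumor 2, and Rps27l, at −0.51 on the log2 scale (SE 0.20, adjusted p = 0.229). The median log2 difference of the 85 members was −0.05, beside −0.01 over all genes tested, and it was 0.05 without TMM, where that of all genes was 0.08. With quantile normalization, also used in the paper, the medians were 0.13 and −0.02, and with a term for the library set 0.15 and −0.08. Members below 0 numbered 51 of 85 in the main fit, 25 with quantile normalization and 33 with the set term. From this comparison the paper reports higher expression of a ribosome gene set, among others, in B1/P/Rbf tumors by gene set enrichment. That test was not run here, and the sign of the members' median depended on the scaling. Among members of at least 10 CPM the lowest difference was that of Rpl11, which binds the 5S rRNA and can inhibit Mdm2, at −0.56, and Rpl22 and Rps26 followed Rps27l at −0.39 each. The highest were Rpl22l1 at 0.51 (0.20 without B1/P/Rbf tumor 2), Rpl32 at 0.40, Rplp2 at 0.37 and Rps15a at 0.35, and none of these passed the test.

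The second and the third comparison set the T121 tumors against B1/P tumors. Relative to B1/P tumors, 21 of 85 members (24.7%) were called lower and none higher in B1/P/Rbf tumors, where 9.29% of all genes were called lower and 7.36% higher. At an unadjusted p under 0.05 there were 40 lower and 0 higher, and DESeq2 called 32 lower and 0 higher. The members' median log2 fold change was −0.55 and 81 of 85 had a negative value, while the median of all genes was −0.06. In 20 members every B1/P/Rbf tumor lay below every B1/P tumor, a separation found in 5.48% of all genes. The count of lower members was 13 without B1/P/Rbf tumor 3 and 11 without B1/P/Rbf tumor 5. With a term for the library set 7 were called, which were Rpl3l, Rpl6, Rpl9, Rpl21, Rpl37a, Rps4x and Rps12. Rpl3l, also among the 21, had at most 53 counts in any tumor and was abundant in the glands alone, so that its call is not read as a difference between tumors. Within the library numbers 1 to 8, which hold the 5 B1/P/Rbf and 3 of the B1/P tumors, the median was −0.47 and 70 of 84 members were negative, but only Rps12 and Rpl37a were called.

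Relative to B1/P tumors, 22 of 85 members were called lower in P/Rbf tumors and none higher, where 10.8% of all genes were called lower and 8.43% higher. At an unadjusted p under 0.05 there were 40 lower and 1 higher, Rps27l, and DESeq2 called 30 lower and Rps27l higher. The median of the members was −0.50 against −0.05 for all genes, and 79 of 85 were negative. In 11 members every P/Rbf tumor lay below every B1/P tumor, a separation found in 5.11% of all genes, and in none did every P/Rbf tumor lie above, as 3.74% of all genes did. The count fell to 13 without P/Rbf tumor 4, to 13 without P/Rbf tumor 5 and to 6 when only the 2 groups were fitted. Within the library numbers 9 to 18, which hold 2 of the B1/P tumors, 17 of 85 members were called lower. The share of all genes called in that fit is not given. These 2 comparisons share the B1/P tumors, and the members called lower in each include Rpl3l, which was abundant in the glands alone. Several cell markers also differed between these groups, some in the members' direction and some in the other, and none of those named here was at 0 in any group. The 8 fibroblast genes summed to 2584 to 12854 CPM in B1/P tumors, to 841 to 4783 CPM in B1/P/Rbf tumors and to 1280 to 4047 CPM in P/Rbf tumors, with 2 and 4 of them called lower in the T121 groups. The 8 epithelial genes summed to 1667 to 4673 CPM in B1/P, 3323 to 7075 CPM in B1/P/Rbf and 7439 to 12538 CPM in P/Rbf tumors, with 3 and 5 called higher. Of 8 proliferation genes, 1 and 4 were called higher, with sums of 809 to 1365 CPM in B1/P tumors, 1338 to 2391 CPM in B1/P/Rbf and 1278 to 3670 CPM in P/Rbf tumors. Of 8 macrophage genes, 0 and 2 were called lower, and their sums of 407 to 3198 CPM in B1/P tumors overlapped both other groups. The part of these cells in the members' difference was not tested.

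**Figure D2:**
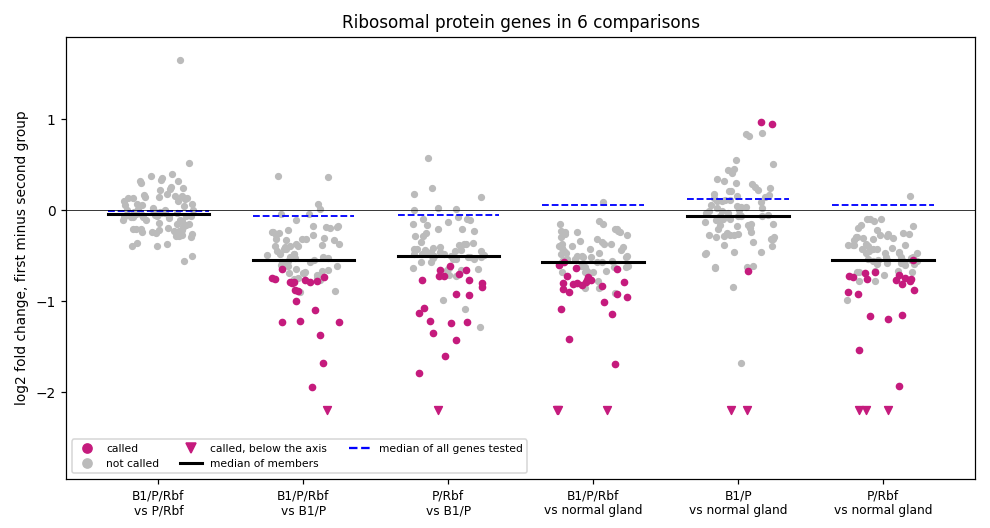
Log2 fold changes (y axis, first minus second group) of the 85 tested ribosomal protein genes in the 6 comparisons (x axis); pink points were called, gray points were not, triangles stand for called genes below the axis, black bars are medians of the members and blue dashed lines medians of all genes tested. The medians lie near −0.5 in 4 comparisons and near 0 in B1/P/Rbf against P/Rbf tumors and in B1/P tumors against glands.

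Among the ubiquitous members, small-subunit genes gave the largest and some of the smallest differences from B1/P tumors. Rps12, an integral 40S protein, had 475, 330, 314, 475 and 272 CPM in the B1/P/Rbf tumors and 574, 302, 596, 233 and 269 CPM in the P/Rbf tumors. The B1/P tumors had 1100, 525, 1069, 1093 and 2185 CPM, all above the B1/P/Rbf tumors, and the glands 652, 669 and 710 CPM. Its log2 fold change against B1/P tumors was −1.68 (SE 0.35, adjusted p = 0.00389) in B1/P/Rbf and −1.60 (SE 0.34, adjusted p = 0.00512) in P/Rbf tumors, and −1.25 (adjusted p = 0.0443) for B1/P/Rbf tumors within the library numbers 1 to 8. Of the 75-base stretches of its transcripts, 19.5% also occur in other genes, mostly processed copies, so part of its reads could have been divided among them. Rps21 had 825 CPM in B1/P tumor 1 and 155 to 426 CPM in the other B1/P tumors, against 156 to 283 CPM in B1/P/Rbf and 85.6 to 230 CPM in P/Rbf tumors. Its B1/P mean thus leans on tumor 1. The groups overlapped, through B1/P tumor 2 at 155 CPM, and the log2 fold changes were −1.10 (SE 0.37, adjusted p = 0.0477) and −1.42 (SE 0.37, adjusted p = 0.0135), neither called with a term for the library set (−1.38 and adjusted p = 0.0692 in P/Rbf tumors), while within one set the P/Rbf call held at −1.38 (adjusted p = 0.0345). Among the 30 ubiquitous 40S genes, 6 were called lower in B1/P/Rbf and 7 in P/Rbf tumors, with medians of −0.49 and −0.51. Of all genes, 9.29 and 10.8% were called lower in these comparisons. Rps14, a 40S protein of the platform, was the only one of the 30 above 0 in B1/P/Rbf tumors, at 0.01 (adjusted p = 0.985), with 482 ± 164 CPM against 477 ± 165 CPM in B1/P tumors (SD, n = 5 each).

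Of 43 large-subunit genes, 12 were called lower in each of the comparisons with B1/P tumors, with medians of −0.60 for B1/P/Rbf and −0.46 for P/Rbf tumors. The shares of all genes called lower were 9.29 and 10.8%. Rpl37a, a zinc-binding 60S protein, had 207, 247, 209, 218 and 183 CPM in B1/P/Rbf tumors and 229, 181, 263, 186 and 200 CPM in P/Rbf tumors. The B1/P tumors had 388, 389, 465, 522 and 728 CPM and the glands 440, 473 and 494 CPM, so that the T121 tumors lay apart from both. The log2 fold change against B1/P tumors was −1.23 (SE 0.19, adjusted p = 0.000677) in B1/P/Rbf and −1.24 (SE 0.19, adjusted p = 0.000687) in P/Rbf tumors.
Rpl21, a 60S protein, had 349 to 700 CPM in P/Rbf and 372 to 563 CPM in B1/P/Rbf tumors. The B1/P tumors had 669, 625, 1753, 1640 and 1644 CPM, which leaves a wide gap between tumors 1 and 2 and the other 3. Its log2 fold changes were −1.37 (SE 0.30, adjusted p = 0.00621) and −1.35 (SE 0.30, adjusted p = 0.00646), the one for B1/P/Rbf tumors not called within one library set (adjusted p = 0.11). Rpl6, another 60S protein, had 1212, 875, 1359, 2320 and 1210 CPM in B1/P tumors, above all B1/P/Rbf tumors at 421 to 761 CPM and all P/Rbf tumors at 379 to 840 CPM. Rpl7 was highest in B1/P tumor 4, at 3410 CPM, and had 990 to 1306 CPM in the other B1/P tumors, 517 to 809 CPM in B1/P/Rbf and 523 to 925 CPM in P/Rbf tumors. Among these 60S genes the highest values above 0 belonged to Rpl17 at 0.38 in B1/P/Rbf tumors, and to Rpl11 at 0.24, Rpl29 at 0.17 and Rpl17 at 0.14 in P/Rbf tumors, and none was called.

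The 3 stalk genes differed among themselves. Rplp0, which anchors the stalk to the rRNA, had 2857, 2037, 2965, 2166 and 3078 CPM in B1/P tumors, above every other sample of the series. It had 908 to 1659 CPM in B1/P/Rbf tumors, 665 to 1815 CPM in P/Rbf tumors and 1420 to 1556 CPM in glands. Its log2 fold change against B1/P tumors was −0.99 (SE 0.28, adjusted p = 0.0221) in B1/P/Rbf and −1.13 (SE 0.28, adjusted p = 0.011) in P/Rbf tumors, and with a term for the library set or within one set the folds were −0.97 to −0.99 and −1.13 without a call (adjusted p = 0.0519 to 0.104). Rplp1, one of the acidic stalk proteins, had 396 to 713 CPM in B1/P/Rbf, 739 to 1131 CPM in B1/P, 345 to 861 CPM in P/Rbf tumors and 949 to 1075 CPM in glands. It was called against glands in both T121 groups (−0.76 in each, adjusted p = 0.0457 and 0.0458), which was lost in B1/P/Rbf tumors with a term for the library set (−0.86, adjusted p = 0.218) and in P/Rbf tumors within one set (−0.76, adjusted p = 0.0929), and not against B1/P tumors (−0.71 in each, adjusted p = 0.064 and 0.0593). Rplp2, its partner, was highest in the glands at 503, 615 and 628 CPM, and had 175 to 384 CPM in P/Rbf, 256 to 438 CPM in B1/P/Rbf and 228 to 561 CPM in B1/P tumors, where the top value reached the gland range. Its fall against glands was −0.82 (SE 0.29, adjusted p = 0.0364) in B1/P/Rbf tumors, a value that became 0.02 with a term for the library set, and −1.19 (SE 0.29, adjusted p = 0.00417) in P/Rbf tumors.

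**Figure D3:**
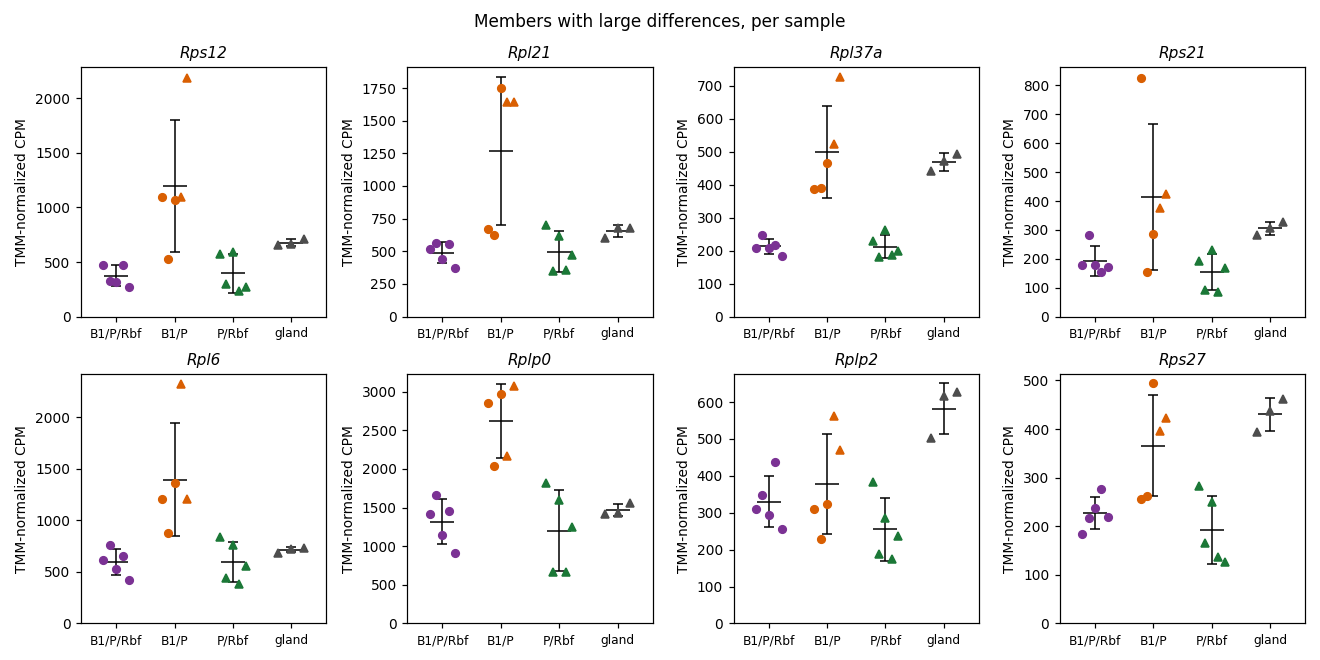
TMM-normalized CPM (y axes, from 0) of 8 ribosomal protein genes in each sample by group; circles are library numbers 1 to 8, triangles 9 to 18, and bars are mean ± SD. Rps12, Rpl37a, Rpl6 and Rplp0 have no B1/P/Rbf tumor at or above the lowest B1/P tumor, and Rps27 and Rplp2 reach the gland range in B1/P tumors but in neither T121 group.

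Against normal glands, 27 of 85 members were called lower in B1/P/Rbf tumors and none higher, where 20% of all genes were called lower and 17.1% higher. At an unadjusted p under 0.05 there were 39 lower and 0 higher, and DESeq2 called 30 lower and 0 higher. In 61 members every B1/P/Rbf tumor lay below every gland, a separation found in 27.4% of all genes. The median was −0.57 against 0.05 for all genes. Without TMM the all-gene median moved to 0.42 and the members' median to −0.20, and 4 members were called lower. With a term for the library set the 4 called were Rpl3l, Rpl22l1, Rps10 and Rps29, of which Rpl3l was abundant in the glands alone. Leaving out B1/P/Rbf tumor 1, 3 or 5 gave 17, 15 and 14 lower, and leaving out gland 1, 2 or 3 gave 15, 10 and 8. In P/Rbf tumors 23 of 85 members were called lower and none higher against glands, where 20.3% of all genes were called lower and 17.4% higher. At an unadjusted p under 0.05 there were 31 lower and 0 higher, and DESeq2 called 25 lower and 0 higher. In 27 members the P/Rbf tumors lay below all glands, a separation found in 26.5% of all genes. The median was −0.54 against 0.05. Without TMM 8 members were called lower with a median of −0.26 against 0.33 for all genes. The count was 14, 13 and 12 without P/Rbf tumors 2, 4 and 5, and 12, 8 and 8 without glands 1, 2 and 3. Both groups share the glands, whose adipocyte and muscle markers are given above, whose mitochondrially encoded RNA was 6.97 to 7.72% of counts against 0.955 to 3.75% in the tumors, and whose 8 lymphocyte markers summed to 581 to 817 CPM, against 14.4 to 120 CPM in the tumors. All 8 proliferation markers were called higher than in glands, where they summed to 84.6 to 87.2 CPM, in each tumor group. Of 7 endothelial markers, 4 to 5 were called lower in each tumor group. In B1/P/Rbf, P/Rbf and B1/P tumors, 3, 4 and 3 of 8 epithelial markers were called higher. In the same order 2, 1 and 5 of 8 macrophage markers were called higher, with 1 lower in P/Rbf tumors. Of 8 fibroblast markers, 2 were called lower in each T121 group and 3 higher in B1/P tumors. The part of these cells and of mitochondrial RNA in the members' difference was not tested.

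Among the ubiquitous members, Rpl37a had the lowest log2 fold change against glands in B1/P/Rbf tumors, at −1.14 (SE 0.21, adjusted p = 0.000418), and it had −1.15 (SE 0.21, adjusted p = 0.000375) in P/Rbf tumors. Rps15, a 40S protein near the decoding site, had 228 to 382 CPM in B1/P/Rbf tumors and 551 to 632 CPM in glands, a log2 fold change of −1.08 (SE 0.29, adjusted p = 0.00808). With a term for the library set neither B1/P/Rbf call held, at −0.55 (adjusted p = 0.189) for Rpl37a and −1.15 (adjusted p = 0.109) for Rps15. Rps27, a zinc-finger protein of the 40S subunit, had 283, 166, 250, 136 and 127 CPM in P/Rbf tumors and 394, 437 and 461 CPM in glands. Its log2 fold change was −1.16 (SE 0.27, adjusted p = 0.00314), without overlap.

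In B1/P tumors, which lack T121, few members were called against glands. Of 85, 2 were called higher and 3 lower, where 16.8% of all genes were called higher and 16.9% lower. The median was −0.06 against 0.12 for all genes, and the members' median stayed below that of all genes under other scalings, at 0.30 against 0.47 without TMM (9 higher and 2 lower) and 0.17 against 0.19 under quantile normalization (8 higher and 3 lower), but not with a term for the library set (0.08 against 0.03). DESeq2 called 4 higher and 2 lower. The 2 higher members were Rpl6, with 1395 ± 547 CPM (SD, n = 5) against 714 ± 23.7 CPM (SD, n = 3), a log2 fold change of 0.97 (SE 0.32, adjusted p = 0.028), and Rpl21, with 0.95 (SE 0.36, adjusted p = 0.0479). Neither was called without B1/P tumor 4 or without any one of the 3 glands, and Rpl21 also not without B1/P tumor 3 or 5, any one B1/P/Rbf tumor, or P/Rbf tumor 3 or 5. Rplp0 (0.84, adjusted p = 0.0584) and Rpl7 (0.85, adjusted p = 0.0727) came next and were not called, although all 5 B1/P tumors lay above all glands in both. With a term for the library set Rpl7 (1.39, adjusted p = 0.00741) and Rps12 (1.28, adjusted p = 0.0427) were called, and Rpl7 also within one set (1.40, adjusted p = 0.0276). Without B1/P tumor 4 Rpl7 had 0.37 (adjusted p = 0.215). The 3 lower members were the paralogs Rpl3l, Rps4l and Rps27l, of which Rpl3l was abundant in the glands alone and is described below. Rps14 (−0.63, adjusted p = 0.205) and Rpl22l1 (−0.84, adjusted p = 0.145) also had low values without a call. In 11 members the groups did not overlap, 6 of them higher and 5 lower in B1/P tumors, while 18.7% of all genes were higher and 22.7% lower without overlap.

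Paralogs were compared with their parent gene within each sample, and a ratio can differ through the paralog, the parent or both. Of 8 pairs, 6 had a mean of at least 1 CPM for both genes, Rpl3l through the glands alone, so that its ratio is described without a test. For the other 5 pairs the log2 ratio of (CPM + 0.5) was tested in the 6 comparisons by an exact two-sided permutation test over samples, 30 tests in all. The smallest p possible is 0.00794 for 5 against 5 samples and 0.0357 for 5 against 3, and the p-values are not corrected for the number of tests. Of the 30, 16 had a p of 0.05 or less.

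Rpl3l, a paralog that replaces Rpl3 in skeletal and heart muscle, was abundant in glands only. It had 2863 to 4787 counts in the glands (182, 93.7 and 162 CPM), 0 to 3 counts in P/Rbf, 1 to 3 counts in B1/P/Rbf and 1 to 53 counts in B1/P tumors. In the glands it amounted to 20.4, 9.67 and 16.7% of Rpl3, and in no tumor to more than 0.154%. Between glands and tumors the 9 skeletal muscle markers moved with it: gland 2, lowest in Rpl3l, was lowest in summed markers at 30616 CPM, and 7 of the 9 were under 1 CPM in every B1/P/Rbf tumor and 6 in every P/Rbf tumor. Among the tumors the order differed. Rpl3l was highest in B1/P tumor 1 at 1.68 CPM and B1/P tumor 5 at 1.26 CPM, where the markers summed to 7.60 and 736 CPM. The other B1/P tumors had marker sums of 2.13 to 12.4 CPM. B1/P/Rbf tumors had sums of 5.25 to 22.8 CPM with Rpl3l at 0.027 to 0.085 CPM, and P/Rbf tumors had sums of 1.38 to 4.12 CPM. edgeR also called Rpl3l lower in both T121 groups than in B1/P tumors (adjusted p = 0.00741 and 0.00782), on these few counts, and limma-voom did not. Its mean level comes from the glands alone, so that these calls are not read as a difference between tumors. In the same comparisons 7 and 8 of the 9 muscle markers were called lower, although only B1/P tumor 5 had a higher sum than every T121 tumor. The part of muscle in the level of Rpl3l was not tested.

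Rps27l, a paralog of Rps27 whose gene is inducible by p53, did not follow its parent. It had 94.4, 57.6, 77, 62.6 and 66.8 CPM in P/Rbf tumors and 51.3, 51.1, 46.7, 61.6 and 41.2 CPM in B1/P/Rbf tumors. The B1/P tumors had 37.3, 52.6, 41.9, 71.5 and 37.5 CPM, and the glands 65.3, 73.5 and 91.2 CPM. As a share of Rps27 this was 30.8 to 52.5% in P/Rbf, 18.8 to 27.8% in B1/P/Rbf, 8.49 to 20% in B1/P tumors and 16.6 to 19.8% in glands, so that P/Rbf tumors lay above all other samples. The log2 ratio was higher in P/Rbf than in B1/P tumors by 1.54 (exact p = 0.00794) and than in glands by 1.13 (exact p = 0.0357). It was lower in B1/P/Rbf than in P/Rbf tumors, with a difference of −0.79 (exact p = 0.00794) between groups that share no library set, and higher than in B1/P tumors by 0.75 (exact p = 0.0238). Of 12 other p53 target genes on a fixed list, 2 were called higher and 1 lower in P/Rbf than in B1/P tumors, and none was called between the T121 groups. Taken singly, Rps27 was called lower in P/Rbf tumors against the B1/P group, by a log2 fold change of −0.93 (SE 0.24, adjusted p = 0.0148; −1.08 and adjusted p = 0.0333 with a term for the library set, and not called within one set), and Rps27l was not called there, at 0.57 (SE 0.20, adjusted p = 0.0579). Against glands Rps27l was called lower in B1/P/Rbf (−0.60, SE 0.23, adjusted p = 0.0491) and B1/P tumors (−0.67, SE 0.23, adjusted p = 0.0334), and neither call held with a term for the library set (−0.29, adjusted p = 0.618, and −0.49, adjusted p = 0.227).

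Rpl7l1, a nucleolar relative of Rpl7 that acts in 60S assembly, was called in no comparison. It had 55.4 to 132 CPM across the 18 samples, and its log2 fold changes lay between −0.06 and 0.16. Its ratio to Rpl7 was 10.5 to 13.7% in B1/P/Rbf, 3.85 to 8.03% in B1/P, 10.6 to 14.3% in P/Rbf tumors and 8.30 to 9.56% in glands, with no overlap between B1/P tumors and any other group. Relative to B1/P tumors the log2 ratio was higher by 1.06 in B1/P/Rbf and by 1.09 in P/Rbf tumors (exact p = 0.00794 each). The glands lay between, with differences from them of 0.47 in B1/P/Rbf, 0.50 in P/Rbf and −0.59 in B1/P tumors (exact p = 0.0357 each). Since the groups did not overlap, the T121 tumors were also above the B1/P tumors of their own library set. The parent Rpl7 had 990 to 3410 CPM in B1/P tumors and 517 to 925 CPM in the T121 tumors. Between tumor groups the ratio thus differed through the parent, whose difference is given above.

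Rpl36al, an autosomal relative of the X-linked Rpl36a that lies outside the symbol rule, also had its lowest ratio in B1/P tumors. It had 70.6 to 102 CPM in B1/P, 88.7 to 121 CPM in B1/P/Rbf, 82.8 to 206 CPM in P/Rbf tumors and 133 to 156 CPM in glands. Its share of Rpl36a was 23.1 to 40.4% in B1/P tumors and at least 53.1% in every other sample. The log2 ratio was higher by 1.17 in B1/P/Rbf and by 1.28 in P/Rbf tumors than in B1/P tumors (exact p = 0.00794 each), and lower in B1/P tumors than in glands, with a difference of −1.0 (exact p = 0.0357). By edgeR Rpl36al itself was called higher in P/Rbf tumors against the B1/P group (0.64, SE 0.22, adjusted p = 0.0473) and lower in B1/P tumors against glands (−0.85, SE 0.24, adjusted p = 0.0126), and with a term for the library set the folds were 0.68 and −0.90 without a call (adjusted p = 0.16 and 0.0526).

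Rpl22l1, whose protein can take the place of Rpl22, varied widely within both tumor groups with floxed Brca1. It had 26.2, 60.7, 21.9, 20.7 and 40.9 CPM in B1/P/Rbf tumors, and the B1/P tumors had 26.7, 90.8, 63.7, 21.1 and 51.3 CPM. P/Rbf tumors had 15 to 34.4 CPM, a range that overlaps both of these groups, and glands had 86.2, 77.4 and 110 CPM. Relative to Rpl22 it ranged from 8.01 to 56.5% in B1/P/Rbf and from 6.60 to 60.5% in B1/P tumors, and from 7.62 to 16.6% in P/Rbf tumors against 29.8 to 38.2% in glands. The difference of the log2 ratio from glands was −1.64 in P/Rbf tumors (exact p = 0.0357), and −0.85 (exact p = 0.357) and −0.96 (exact p = 0.286) in B1/P/Rbf and B1/P tumors. Rpl22l1 itself was called lower than in glands in B1/P/Rbf (−1.42, SE 0.43, adjusted p = 0.0167) and P/Rbf tumors (−1.93, SE 0.44, adjusted p = 0.00224), the former neither without TMM nor without gland 3.

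Rps4l, a transcribed retrogene copy of the X-linked Rps4x, had 19.2, 19.3 and 19.2 CPM in glands and 0.649 to 12.6 CPM in the tumors. The highest tumor value was B1/P/Rbf tumor 2, and the other 14 tumors had at most 4.24 CPM. Its log2 ratio to Rps4x was lower than in glands in each tumor group, with differences of −2.97 in P/Rbf, −2.24 in B1/P/Rbf and −2.74 in B1/P tumors (exact p = 0.0357 each). edgeR called the gene lower than in glands in B1/P/Rbf (−2.34, adjusted p = 0.0125), B1/P (−2.71, adjusted p = 0.00604) and P/Rbf tumors (−3.99, adjusted p = 0.00034), and with a term for the library set the call held in P/Rbf tumors and was lost in B1/P/Rbf (−2.26, adjusted p = 0.186) and B1/P tumors (−2.66, adjusted p = 0.059). Within one library set it held in B1/P tumors (−2.65, adjusted p = 0.00249), and without B1/P/Rbf tumor 2 the fold of that group was −3.61. Rpl39l, a relative of Rpl39 known from testis, had 37 to 61 counts in the glands (1.44 to 2.07 CPM) and 1 to 29 counts in the tumors. It was called lower in B1/P/Rbf (−2.57, SE 0.78, adjusted p = 0.0153, or −1.47 and 0.439 with a term for the library set) and P/Rbf tumors (−2.21, SE 0.77, adjusted p = 0.0321) and not in B1/P tumors (−1.68, SE 0.76, adjusted p = 0.0998).
The symbol rule also took in the processed copies Rps12l1, Rpl6l, Rpl32l, Rps3a2 and Rps3a3, with at most 6.05 CPM in any sample. Rps12l1 was called lower in both T121 groups than in B1/P tumors, but 100% of its 75-base stretches occur in other genes, so that its reads cannot be told from theirs. Rps3a2 shares 86.4% and had 1.92 to 5.74 CPM.

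**Figure D4:**
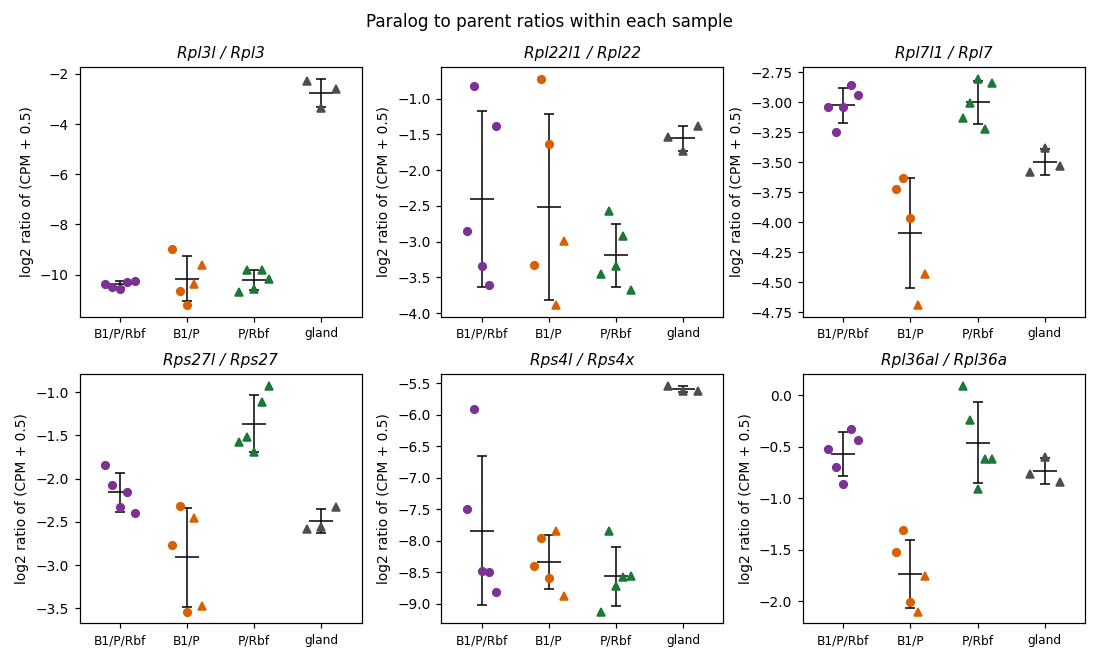
Log2 ratio of each paralog to its parent gene, (CPM + 0.5) over (CPM + 0.5), in each sample by group (y axes do not start at 0); circles are library numbers 1 to 8, triangles 9 to 18, and bars are mean ± SD. Rpl3l and Rps4l are highest in glands, Rps27l in P/Rbf tumors, and the ratios of Rpl7l1 and Rpl36al are lowest in B1/P tumors.

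The members varied more from tumor to tumor than from gland to gland, and not all together. For each sample the deviation of every member from its group mean was centred on the sample's median, over the 76 members that reach a mean of 10 CPM, paralogs left out. The SD of these deviations was 0.04 to 0.07 on the log2 scale in glands, 0.16 to 0.29 in B1/P/Rbf, 0.19 to 0.34 in P/Rbf and 0.39 to 0.45 in B1/P tumors. The B1/P tumors had the widest spread, and each of them lay above every other sample. They are also the only group with tumors in both library sets, which the group mean does not take into account. The 11038 other genes of at least 10 CPM also spread more in tumors, and by a robust SD from the median absolute deviation they had 0.12 to 0.19 in glands, 0.37 to 0.46 in B1/P/Rbf, 0.38 to 0.54 in P/Rbf and 0.52 to 0.63 in B1/P tumors. By the same measure the members had 0.04 to 0.08, 0.14 to 0.26, 0.16 to 0.26 and 0.37 to 0.47, below the other genes in every group.

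The members' deviations were set beside those of other genes by chromosome. For this description each sample was set against the mean of the glands and centred, and medians were taken over the 10 chromosomes with at least 4 of these members (58 members), beside the medians of the 6493 other genes of at least 10 CPM on average on the same chromosomes. In B1/P tumors 1 to 5 the 5 members on chromosome 5 (Rpl5, Rpl6, Rpl9, Rpl21 and Rplp0) had medians of 0.98, 0.24, 0.84, 0.52 and 0.59, while the other genes of that chromosome had 0.51, 0.11, 0.49, 0.40 and 0.49. The same members also had medians above 0 in the T121 tumors, at 0.15 to 0.37 in B1/P/Rbf and 0.11 to 0.31 in P/Rbf tumors. The 14 members on chromosome 7 had a median of −0.72 in P/Rbf tumor 3, where other genes of chromosome 7 had −0.73, and of −0.62 in B1/P tumor 2, where other genes had −0.46. In P/Rbf tumor 4 the 4 members on the X chromosome had 0.43 and other genes 0.66. In B1/P tumor 5 the 6 members on chromosome 17 had −0.80 and other genes −0.54. Not every case matched, since the 4 members on chromosome 15 had 0.03 in B1/P/Rbf tumor 2, where other genes had −0.64.
Across the 10 chromosomes the Pearson correlation of the 2 medians was 0.52 to 0.90 in B1/P, 0.30 to 0.82 in P/Rbf and 0.17 to 0.72 in B1/P/Rbf tumors, and −0.04 to 0.48 in glands, where both medians hardly varied. These values describe 10 points of one library each, which share its depth and the same reference glands.

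**Figure D5:**
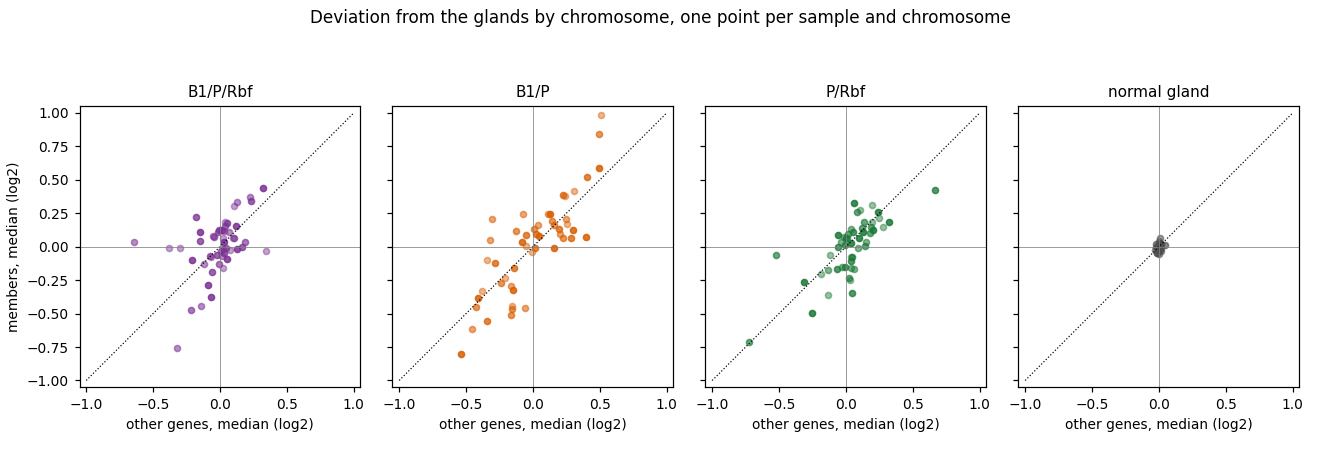
Median deviation from the glands (log2, centred per sample) of the ribosomal protein genes (y axis) against that of all other genes on the same chromosome (x axis), for 10 chromosomes in every sample, by group; the dotted line marks equal values. In the 5 B1/P tumors the correlation is 0.52 to 0.90, and the glands lie at the centre.

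Other genes of the translation machinery were counted from fixed lists. Of 5 ribosomal protein genes outside the symbol rule, 3 were called lower than in B1/P tumors in B1/P/Rbf, and 2 lower and 1 higher, Rpl36al, in P/Rbf tumors. Of all genes, 9.29% were called lower in B1/P/Rbf, and 10.8% lower and 8.43% higher in P/Rbf tumors. Fau, which encodes the 40S protein eS30, was lower than in B1/P tumors in both T121 groups (−0.89, adjusted p = 0.0187, and −1.13, adjusted p = 0.00498). Rack1, a scaffold on the 40S head, fell in B1/P/Rbf tumors (−0.94, adjusted p = 0.0343). Of 16 translation factors with TOP mRNAs, 3 were called lower than in B1/P tumors in each T121 group and none higher, with medians of −0.45 and −0.35, where 9.29 and 10.8% of all genes were called lower. The lowest with all samples were Eef1b2, an exchange factor of the elongation factor eEF1A, at −1.44 (adjusted p = 0.0276) and −1.99 (adjusted p = 0.00509), and Eef1g, of the same complex, at −1.01 (adjusted p = 0.0235) and −1.44 (adjusted p = 0.0035). Eef1b2 had 2608 CPM in B1/P tumor 4 and 483 to 700 CPM in the other B1/P tumors. Its folds and its place therefore lean on tumor 4, and its folds without that tumor are not given.
Genes that build ribosomes had medians above 0 against glands. Of 32 ribosome biogenesis factors, 11 were called higher than in glands in B1/P/Rbf, 12 in P/Rbf and 14 in B1/P tumors, and none lower, where 17.1, 17.4 and 16.8% of all genes were called higher, with medians of 0.62, 0.71 and 0.83, while the members' medians were −0.57, −0.54 and −0.06. Nop58, a core protein of box C/D snoRNPs, had in the same order 147 ± 23.2, 131 ± 60.9 and 240 ± 224 CPM (SD, n = 5 each) against 42.2 ± 5.96 CPM (SD, n = 3) and was called in each. Of 13 genes of RNA polymerase I and its factors, 4, 1 and 3 were called higher and 1, 1 and 0 lower, counts that lie closer to those shares of all genes. Against B1/P tumors 2 of the 32 biogenesis factors were called lower in B1/P/Rbf and 3 in P/Rbf tumors, and none higher, shares no larger than those of all genes.
The genes for the ribosomes of mitochondria, whose proteins come from other genes, were counted in the same way. Of 78 tested, none was called between the T121 groups. Against B1/P tumors 5 were lower and none higher in B1/P/Rbf tumors, and 2 were lower and 8 higher in P/Rbf tumors, with medians of −0.08 and 0.15, while 9.29 and 10.8% of all genes were called lower and 7.36 and 8.43% higher. Against glands 41, 28 and 33 were lower in B1/P/Rbf, P/Rbf and B1/P tumors and none higher, where 20, 20.3 and 16.9% of all genes were called lower. Of 9 regulators of TOP mRNA translation, no gene was called between any 2 tumor groups. Against glands Eif4ebp1, the cap-binding inhibitor under mTORC1, was lower in B1/P/Rbf (−2.25, adjusted p = 1.3e-05), P/Rbf (−1.58, adjusted p = 0.000354) and B1/P tumors (−1.68, adjusted p = 0.000261), and Larp1, which binds the TOP motif, was higher in B1/P/Rbf (0.71, adjusted p = 0.035) and P/Rbf tumors (0.90, adjusted p = 0.0105). In B1/P tumors the one called higher was Rptor, the mTORC1 subunit Raptor (0.72, adjusted p = 0.0147).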

How the data were processed

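The deposited file holds the authors' expected counts per gene from RSEM 1.3.0, not normalized, for 18 samples. The authors made stranded mRNA libraries, read them in pairs, and trimmed reads with cutadapt 1.18. The reference they name is human GRCh38, but each of the 55450 identifiers is found in mouse GENCODE M21 (GRCm38). Because RSEM splits ambiguous reads, 5.61% of values were not whole. Whether strand was used in counting is not given in the sources used here.

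Expected counts were rounded. Genes were kept by filterByExpr (minimum count 10; 19186 genes) and fitted in edgeR 4.0.16 (R 4.3.3; TMM, quasi-likelihood, 4 groups, all samples), with Benjamini-Hochberg adjustment over all genes and a call at 0.05. The fit was tested on simulated data. Ratios used a pseudocount of 0.5 CPM and exact permutation tests. Alternatives were DESeq2 1.42.0, limma 3.58.1 (voom, quantile), other scalings, filters and designs, a library-set term, pseudogenes added to their parents, and each sample left out. Fits within 1 library set were chosen after seeing the data.

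The members and lists were chosen with earlier results of these data known. Named were all paralogs, the stalk, in each comparison the 4 largest rises and falls among members of at least 10 CPM, the 3 highest and 3 lowest members, and genes of other lists from the 2 largest called in each direction. Members listed by chromosome were chosen after their values were seen. Values of some single genes are not reported here. Sequences are from RefSeq. Replicates are separate mice, with 27661173 to 37794889 counts each.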

Additional observations from a re-analysis of the deposited data

Results flagged for a closer look

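A sample stood far from the others of its group, by Dixon's ratio of gap to range, in 20 of 258 groups of 5 checked, and chance flags about 1 in 20 groups. P/Rbf tumor 1 was the high one for Rpl13a (824.1 CPM), Rpl18 (419.8 CPM), Rpl28 (510.3 CPM), Rps13 (339.6 CPM), Rps16 (511.9 CPM) and Rps19 (523.0 CPM), which all lie on chromosome 7, and for Rpl8 (919.6 CPM) on chromosome 15. The median log2 difference of genes within 2 Mb ranged from −0.01 near Rps13 to 0.40 near Rpl8. This check used CPM that were not centred per sample. After TMM scaling P/Rbf tumor 1 had the highest summed member share of its group, at 4.27%. Centred against the glands, the 14 members on chromosome 7 had a median of −0.06 in that tumor, and other genes of the chromosome −0.12. P/Rbf tumor 3 was high for Rpl17 (863.1 CPM), Rps14 (870.8 CPM) and Rpl32 (512.1 CPM), and the genes within 2 Mb of these had median differences of 0.44, 0.60 and 0.42.

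Among B1/P tumors, tumor 4 was high for Rpl7 (3410 CPM, others 990 to 1306 CPM) and Rpl13 (454.3 CPM), tumor 2 for Rpl17 (674.7 CPM), tumor 3 for Rps7 (823.9 CPM) and tumor 5 for Rpl9 (823.6 CPM), and tumor 1 was low for Rpl34 (179.2 CPM). The 7 genes within 2 Mb of Rpl7 had a median log2 difference of 1.80 in tumor 4, and the 16 around Rpl17 had 0.81 in tumor 2. Among B1/P/Rbf tumors, tumor 2 was high for Rps21 (283.1 CPM) and Rps4l (12.6 CPM), and tumor 5 was low for Rpl7l1 (67.03 CPM) and Rps10 (210.1 CPM). The neighbours of Rps21 had a median of 0.36, and those of Rps4l, Rpl7l1 and Rps10 had medians of −0.04, −0.04 and −0.09.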

How the results depend on the processing

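No paired analysis was possible because the groups share no replicate numbers in the labels. Of the 6 comparisons, B1/P/Rbf against P/Rbf tumors had no member called under any alternative. B1/P/Rbf tumors against B1/P tumors had 32 lower by DESeq2, 13 without a filter, 7 with a library-set term, 2 within one set (chosen after seeing the data) and 11 to 23 when 1 sample was left out. P/Rbf tumors against B1/P tumors had 1 higher by DESeq2, 6 lower when only these groups were fitted, and 0 to 1 higher and 13 to 30 lower with 1 sample left out. B1/P/Rbf tumors against glands had 4 lower without TMM, 13 by limma-voom, 15 without a filter, 55 with a filter at a log2 CPM of 6, 49 when only these groups were fitted, 4 with the set term and 8 to 29 with 1 sample left out. P/Rbf tumors against glands had 8 lower without TMM, 15 without a filter, 57 with the log2 CPM filter and 8 to 29 with 1 sample left out. B1/P tumors against glands had 9 higher without TMM, 4 by DESeq2, 8 by limma-voom, 1 without a filter, 0 higher and 7 lower with the log2 CPM filter, 4 higher and 1 lower with the set term, and 0 to 5 higher and 2 to 4 lower with 1 sample left out. The cause was not tested, and the shares of all genes called under these alternatives are not given here. The filters change how many genes are tested (32772 without one, 4551 with the log2 CPM filter), and the log2 CPM filter also moved the members' medians against glands to −0.86 in B1/P/Rbf, −0.94 in P/Rbf and −0.32 in B1/P tumors.

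For single named members, 694 of 775 values under alternatives kept direction and side of the threshold, 54 lost the call and 26 gained one. The exception in direction was Rplp2 in B1/P/Rbf tumors against glands, at 0.0248 with the set term. DESeq2 gave no adjusted p for Rps4l in any of the 6 comparisons. The tested paralog ratios kept their calls under all 90 alternatives of pseudocount, scaling and pseudogene counts, and with 1 sample left out in all 150 values between tumor groups, while 72 of 120 against glands were lost, where so few samples cannot reach 0.05.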
